A study of Mus musculus with 3 samples.

Results

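Prostaglandins are lipid signals made from arachidonic acid, and this account follows the enzymes that make and inactivate them in renin-producing cells of the mouse kidney. The genes were chosen by name: Pla2g4a, Ptgs1, Ptgs2, Ptges, Ptges2, Ptges3, Ptgis, Ptgds and Hpgd, 9 genes in all. No cutoff on signal was used, but earlier results of these data were known when they were chosen. The array's annotation gave a probe set to 8 of them, with 10 probe sets in all, out of 19938 named genes. Ptgs1, the constitutive cyclooxygenase gene, had no probe set in the annotation used and was not analysed here.

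All samples came from adult male Ren1c-YFP mice, a transgenic line in which renin cells carry yellow fluorescent protein (YFP), of unspecified strain. For 2 weeks the mice had eaten low-salt chow and drunk water with 0.5 mg/ml captopril, which blocks the angiotensin-converting enzyme. YFP-positive cells were sorted from digested kidney cortex without pooling of samples, and Affymetrix arrays were used to measure their RNA after amplification. There is 1 group, measured on 3 arrays (replicates 2, 4 and 5), so every value is a level in treated, sorted cells, and no effect of captopril or of salt can be read from it.

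Synthesis starts when phospholipase A2 frees arachidonic acid from membranes. A cyclooxygenase turns the acid into an unstable intermediate, terminal synthases make prostaglandin E, prostacyclin or prostaglandin D from that intermediate, and a dehydrogenase inactivates the products. In the kidney, prostaglandin E and prostacyclin are known stimuli of renin release, and the inducible cyclooxygenase is known from the macula densa, the tubule cells that face the renin cells.

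A log2 signal depends on probe affinity as well as on RNA, so each gene was read against its array's background and not against other genes. The background level was the 95th percentile of the log2 signals of 1027 olfactory receptor genes, 6.20, 6.32 and 6.50 in replicates 2, 4 and 5. Height is the log2 signal minus that level. A gene passed when limma's one-sided test of a mean height above 0 gave an adjusted p under 0.05 over all genes. The labels do not say outright that each sample came from its own animal, so p-values and intervals concern these 3 samples and not animals in general. In limma each gene's variance is drawn toward that of genes of similar height, so p-values and intervals do not measure the gene's own spread alone. The arrays correlated at Pearson r = 0.962 to 0.972 across genes. All 6 measured renin cell markers passed, among them Rgs5 (12.37 ± 0.10, mean ± SD of log2 signal, n = 3 here and below) and Npr1 (7.58 ± 0.25). Ren1, Ren2 and Akr1b7 were not analysed here. Passing does not tell renin cells from others: the median height was 3.83 for the renin cell list and 4.53 for the proximal tubule list. Markers of other cells also passed: all 11 of the proximal tubule, all 7 of the thick ascending limb, all 7 of intercalated cells, 7 of 8 of principal cells and 6 of 10 of the endothelium, where 37.3% of all genes passed. The shares were 16.7% for podocyte markers (1 of 6) and 20.0% for macrophage markers (2 of 10), which does not set those lists above genes in general. A bulk signal does not tell which cells carried a transcript, nor fewer cells of a type from less RNA per cell.

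Of the 8 measured enzymes 2 passed, Ptges3 and Ptgis, which is 25.0% against 37.3% of all genes. The other 6 had mean heights between -0.36 and 0.65. The median height of the 8 genes was 0.30, and that of all genes was -0.01. Pla2g4a, Ptgs2, Ptges and Ptgds lay a little above the level on average without passing, and Ptges2 and Hpgd lay under it. The 95% intervals of those 4 genes all included 0. At an unadjusted p under 0.05 in limma 3 of the 8 passed (40.6% of all genes), and 4 of the 8 lay over the level on all 3 arrays (41.9% of all genes). The count was again 2 without replicate 2 (30.3% of all genes) and without replicate 4 (32.1%), and it was 4 without replicate 5 (39.2%). It moved with the level taken as background: 1 enzyme passed at the 99th percentile (16.6% of all genes), 6 at the 90th (50%), all 8 when vomeronasal receptor genes set the level (67.3%) and 1 when keratin-associated protein genes did (3.56%).

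**Figure D1:**
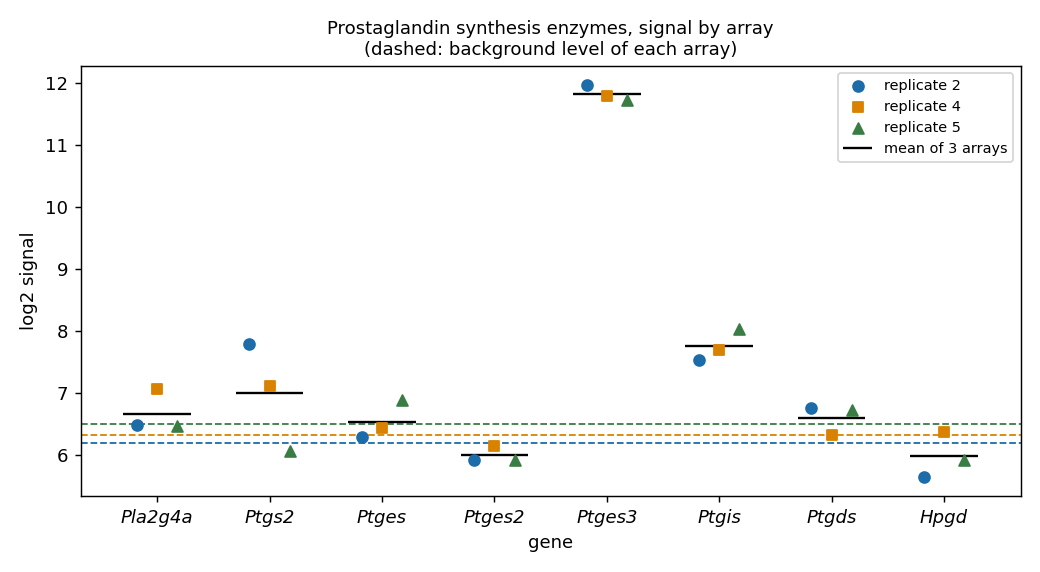
Log2 signal of the 8 measured enzyme genes on each of 3 arrays (points), with the mean (black bar) and the background level of each array (dashed lines in the array's colour). Ptges3 lies between 11.72 and 11.96 and Ptgis between 7.54 and 8.03, above every dashed line, and Ptgs2 has the widest spread, from 6.07 to 7.80.

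The promoter windows of Ptges3, the gene with the greatest height, and of Ptgs2, the gene that differed most between arrays, are shown to place these genes in the genome. RefSeq sequences of build GRCm38.p6 run from 250 bases before to 50 bases after the gene's start and were matched by symbol for 7 of the 8 measured genes. Capitals mark every match, on either strand, of a cAMP response element half-site (TGACG), a GC box (GGGCGG) or a TATA box (TATAAA).
Ptges3, chr10:128058732-128059031, plus strand: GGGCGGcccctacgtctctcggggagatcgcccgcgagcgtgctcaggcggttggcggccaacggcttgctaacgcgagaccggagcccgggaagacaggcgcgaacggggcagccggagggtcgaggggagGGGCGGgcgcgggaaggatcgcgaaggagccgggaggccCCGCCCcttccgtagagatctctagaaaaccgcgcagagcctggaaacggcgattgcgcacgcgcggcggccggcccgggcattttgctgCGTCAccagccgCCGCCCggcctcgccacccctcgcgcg
Ptgs2, chr1:150099781-150100080, plus strand: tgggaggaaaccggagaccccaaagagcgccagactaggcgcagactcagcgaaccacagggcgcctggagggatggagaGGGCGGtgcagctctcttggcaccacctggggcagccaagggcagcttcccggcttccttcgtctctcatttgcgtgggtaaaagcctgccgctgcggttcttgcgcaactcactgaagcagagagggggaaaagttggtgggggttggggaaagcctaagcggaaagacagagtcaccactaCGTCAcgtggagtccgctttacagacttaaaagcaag
The Ptges3 window held 4 GC boxes, 1 half-site and 46 CpG dinucleotides, more CpG than 98.4% of the 32851 promoter windows in the table. The Ptgs2 window held 1 GC box, 1 half-site and 16 CpG dinucleotides. Neither window held TATAAA. Among all windows 35.7% held a GC box, 20.8% a half-site and 13.6% a TATA box, so these matches are common, and they describe letters and not bound sites.

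The first step of the route was represented by Pla2g4a, which encodes cytosolic phospholipase A2 alpha. Its log2 signal was 6.48, 7.06 and 6.47 in replicates 2, 4 and 5. It stood highest in replicate 4 and fell just under the level in replicate 5. The mean height was 0.33 (95% interval -0.10 to 0.76, limma adjusted p = 0.140), and without replicate 5 it passed (0.51, limma adjusted p = 0.0412). Without replicate 2 the height was 0.35 and without replicate 4 it was 0.12, and neither passed (limma adjusted p = 0.252 and 0.657).

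Ptgs2 encodes the inducible cyclooxygenase, an immediate early gene product. Its log2 signal was 7.80 in replicate 2, 7.12 in replicate 4 and 6.07 in replicate 5. It was thus above the level in 2 arrays, by 1.59 and 0.80, and under it by 0.43 in the other (height -0.43). The mean height of 0.65 had a wide interval, -0.13 to 1.43, and Ptgs2 did not pass (limma adjusted p = 0.111). Without replicate 5, its lowest array, the height was 1.20 and passed (limma adjusted p = 0.00243). Without replicate 2 it was 0.18 and without replicate 4 it was 0.58, and neither passed (limma adjusted p = 0.635 and 0.0942). With genes under the median signal left out, the Ptgs2 height was again 0.65 and its limma adjusted p was 0.0357. That filter selects on the signal that is tested (81% of the genes left passed), so it adds no support. The Ptgs2 arrays spanned 1.73 log2 units, the one enzyme of 8 to span over 1 unit, which 8.66% of all genes did, and 0.978% of all genes spanned more than Ptgs2.

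Pla2g4a and Ptgs2 lie near each other on one chromosome in the RefSeq annotation, with 2 annotated genes between them, the pseudogene Gm19136 and the noncoding RNA gene Ptgs2os. Their arrays did not run in the same order. Replicate 2 was 1.20 above the mean of the other arrays for Ptgs2 and 0.28 below it for Pla2g4a (difference -0.28). Ptgs2 was lowest in replicate 5, with a difference from the other arrays of -1.39. Pla2g4a was about as low in replicate 2 (6.48) as in replicate 5 (6.47), where its difference was -0.30.

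Several marker lists also differed between the arrays. The median height of the 10 endothelial markers was 1.85, 0.62 and 0.19 in replicates 2, 4 and 5, the same order as Ptgs2. All genes had that order too, with medians of 0.12, -0.02 and -0.14, as did all genes that passed, with 1.71, 1.54 and 1.13, while the background level rose from 6.20 to 6.50. The order of heights was therefore shared with all genes. On signals, before the level was subtracted, the medians were 8.05, 6.94 and 6.69 for the endothelial list. They were 6.32, 6.29 and 6.36 for all genes, and 7.91, 7.855 and 7.64 for all genes that passed. Of the 10 endothelial markers 5 spanned over 1 log2 unit, against 8.66% of all genes and 1022 of the 7437 genes that passed. So wide a span was not particular to that list. It was found in 4 of 8 principal cell, 4 of 11 proximal tubule and 3 of 7 thick ascending limb markers. It was also found in 1 of 4 mesangial and 1 of 5 macula densa markers, and in 0 of each remaining marker list. Pecam1, an endothelial adhesion molecule, had log2 signals of 9.03, 6.87 and 6.79. Tek, of the same list, read 6.41, 7.11 and 6.63, lowest in replicate 2. Flt1, Eng and Ptprb were highest in replicate 2 but higher in replicate 5 than in replicate 4. Emcn (9.22 ± 0.56), a sialomucin gene, passed, and Kdr (6.64 ± 0.23), a receptor for vascular endothelial growth factor, did not. On the signals themselves, 6 of the 10 endothelial markers had the order 2 over 4 over 5. So did 16.8% of all genes, 28.8% of the genes that passed, 3 of 4 mesangial, 3 of 6 smooth muscle and 3 of 6 podocyte markers. It was rarer in other lists: 2 of 6 renin cell, 3 of 11 proximal tubule, 1 of 7 thick ascending limb and 1 of 8 principal cell markers. The counts were 0 of 5 for macula densa, 0 of 7 for intercalated cell, 0 of 10 for macrophage and 0 of 6 for interstitial fibroblast markers. The 6 renin cell markers had median heights of 4.26, 3.78 and 3.46. The median heights of the thick ascending limb list were 4.15, 4.32 and 3.10, and those of the principal cell list 1.19, 1.79 and 1.27, both highest in replicate 4. Of 5 macula densa markers 1 passed, Avpr1a (7.36 ± 0.37), and Bmp3 (5.83 ± 0.09) among others did not. The median heights of the macula densa list were 0.08, -0.13 and -0.49. Nos1, the nitric oxide synthase that defines the macula densa, had log2 signals of 6.28, 6.19 and 6.29 and a mean height of -0.09. Pappa2, of the same list, read 6.58, 6.69 and 5.55, with heights of 0.38, 0.37 and -0.95, and did not pass. Nos1 and Pappa2 were named after their values were seen, as were Pecam1, Tek, Flt1, Eng and Ptprb. The part of these cells in the Ptgs2 signal was not tested.

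**Figure D2:**
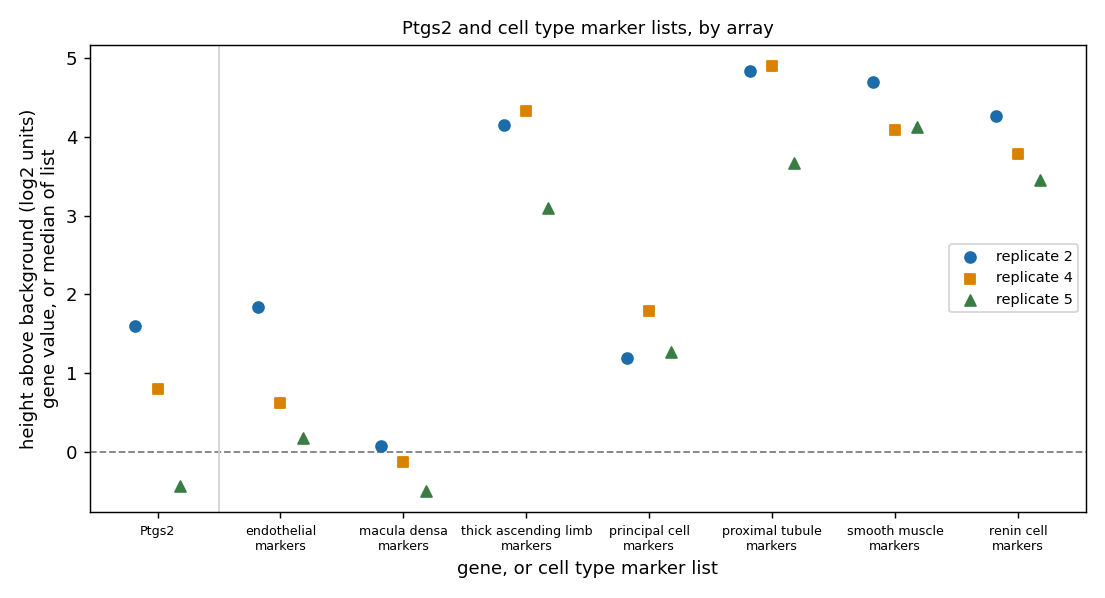
Height above background of Ptgs2 and median height of 7 cell type marker lists on each of 3 arrays (points), in log2 units, with 0 at the background level. Ptgs2 lies at 1.59, 0.80 and -0.43 in replicates 2, 4 and 5, and the endothelial median at 1.85, 0.62 and 0.19.

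Of the genes named as prostaglandin E synthases, Ptges3 passed and Ptges and Ptges2 did not. Ptges3 encodes p23, a co-chaperone of Hsp90 that is also described as the cytosolic prostaglandin E synthase. Its brightest probe set read 11.96, 11.79 and 11.72 in replicates 2, 4 and 5. The arrays lay within 0.24 of each other, and all were more than 5 log2 units over the level (mean height 5.49, 95% interval 5.03 to 5.94, limma adjusted p = 2.56e-07). Its other 2 probe sets, which the annotation also pairs with Ptges3, had means of 11.00 ± 0.28 and 10.78 ± 0.29, heights of 4.66 and 4.44. Their lowest array was replicate 5 as well, and how far near-identical copies of the gene share these probes was not checked.

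Ptges, the inducible microsomal synthase, read 6.28, 6.44 and 6.90. All 3 arrays were over their level, but by little, from 0.08 to 0.39 (mean height 0.20, 95% interval -0.14 to 0.54, limma adjusted p = 0.251). It was highest in replicate 5, where Ptgs2 was lowest. Ptges2, the other membrane-associated synthase, read 5.91, 6.15 and 5.92, under the level on all arrays (mean height -0.35, 95% interval -0.65 to -0.04, limma adjusted p = 1.0).

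Ptgis encodes prostacyclin synthase, an enzyme of vessel walls. It read 7.54, 7.69 and 8.03 in replicates 2, 4 and 5, with heights of 1.34, 1.37 and 1.53. All arrays were clear of the level and close to each other (mean height 1.41, 95% interval 0.94 to 1.88, limma adjusted p = 3.99e-04). Ptgis was highest in replicate 5, where the median height of all genes was lowest (-0.14). On signals, before the level was subtracted, the median of all genes was highest there (6.32, 6.29 and 6.36). The median heights of the endothelial (0.19), renin cell (3.46) and proximal tubule (3.67) lists were lowest in replicate 5 too. Those of the principal cell (1.19, 1.79 and 1.27) and intercalated cell (0.72, 1.58 and 1.33) lists were lowest in replicate 2. The smooth muscle markers, of which 6 of 6 passed, had median heights of 4.70, 4.09 and 4.13. Which cells carried the Ptgis signal was not tested. When the background was raised to the 99th percentile, Ptgis missed the threshold (height 0.55, limma adjusted p = 0.0639).

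Ptgds, the lipocalin-type prostaglandin D synthase, read 6.76, 6.33 and 6.73. Replicate 4 lay 0.01 over its level and the others 0.55 and 0.22 over theirs (mean height 0.26, 95% interval -0.11 to 0.64, limma adjusted p = 0.174). Hpgd encodes the dehydrogenase that inactivates prostaglandins. It read 5.65, 6.37 and 5.92, with only replicate 4 above the level, by 0.06 (mean height -0.36, 95% interval -0.72 to -0.004, limma adjusted p = 1.0).

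Prostanoid receptors, which receive these products, passed in 2 of 9 cases (22.2%, against 37.3% of all genes), and their median height of -0.01 was that of all genes. Ptgfr, the prostaglandin F receptor gene, read 6.74, 7.49 and 7.12 (mean height 0.77, limma adjusted p = 0.00763). Tbxa2r, the thromboxane receptor gene, read 6.82, 6.70 and 6.96 (mean height 0.49, limma adjusted p = 0.0230). The calls of Ptgfr and Tbxa2r were both lost without replicate 4 (limma adjusted p = 0.0735 and 0.0880), and Tbxa2r's also without replicate 2 (limma adjusted p = 0.112). Of the prostaglandin E receptors, Ptger1 read 7.32, 7.16 and 6.39 and Ptger3 read 7.01, 6.87 and 6.52, each lowest in replicate 5. Their adjusted p-values lay just over the threshold (limma 0.0510 and 0.0597), and both passed without replicate 5 (limma adjusted p = 0.00225 and 0.0105). Ptger2 (5.71 ± 0.17) and Ptger4 (5.96 ± 0.16), the receptors that raise cAMP, had mean heights of -0.63 and -0.38. Ptgir, the prostacyclin receptor gene, read 6.50, 6.06 and 6.43, at the level on average (height -0.01, 95% interval -0.36 to 0.34). The prostaglandin D receptor genes Ptgdr (5.64 ± 0.14) and Ptgdr2 were under the level on all arrays, and Ptgdr2 is listed at exactly the same value, 6.03, on all 3.

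**Figure D3:**
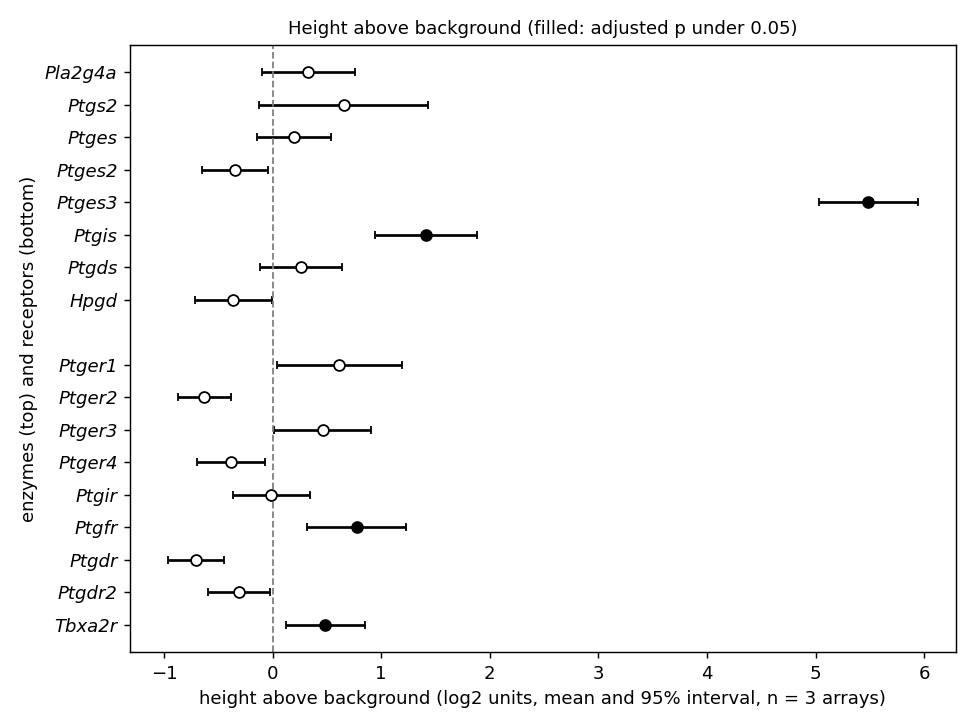
Mean height above background in log2 units with its 95% limma interval (n = 3 arrays) for the 8 measured enzyme genes and the 9 prostanoid receptor genes. Filled points passed at an adjusted p under 0.05: Ptges3 at 5.49, Ptgis at 1.41, Ptgfr at 0.77 and Tbxa2r at 0.49.

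Genes that move and break down prostaglandins were above background in 6 of 8 cases (75.0%, against 37.3% of all genes), with a median height of 2.09 against -0.01. Slco2a1, the prostaglandin transporter, read 11.77, 11.17 and 11.05 (mean height 4.99, 95% interval 4.41 to 5.56, limma adjusted p = 1.29e-06). Hpgd, counted above with the enzymes and not in this list, did not pass (mean height -0.36). The reductases that act after Hpgd were all over the level: Ptgr2 read 9.36, 10.13 and 9.48, Ptgr1 read 8.46, 7.80 and 8.46, and Zadh2 read 8.13, 7.85 and 7.41. The organic anion transporter genes Slc22a8 (10.02 ± 0.19) and Slc22a6 (8.62 ± 0.36), known from the proximal tubule, passed in samples where all 11 proximal tubule markers did. Which cells carried these 2 transcripts was not tested. Abcc4, an efflux pump for prostaglandins, missed the threshold (6.81 ± 0.22, limma adjusted p = 0.0505), and Slc22a7 (6.02 ± 0.22) was under the level. Abcc4 passed without replicate 5 and under 5 other settings.

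Other phospholipases A2 and the lipase gene Mgll passed in 3 of 16 measured cases (18.8%, against 37.3% of all genes), with a median height of -0.06. Mgll, whose product frees arachidonic acid from a monoacylglycerol, read 8.01, 8.13 and 6.43, so replicate 5 lay far under the others and under its level. Pla2g5 (6.95 ± 0.28) and Pla2g12a (6.79 ± 0.08), secreted phospholipases, had heights of 0.61 and 0.45, and Pla2g4d (4.89 ± 0.08) was among those under the level. Without replicate 2 none of the 3 passed in limma (1 of the 16 at an unadjusted p under 0.05), and without replicate 4 only Mgll did. Other prostanoid synthases and reductases passed in 2 of 7 cases (28.6%, against the same 37.3%), Prxl2b (8.65 ± 0.46), a prostaglandin F synthase, and Cbr1 (7.72 ± 0.36), a carbonyl reductase. Akr1c18 (4.52 ± 0.22) was under the level, and Akr1b3 was not analysed here. In the list of lipoxygenase and leukotriene genes 1 of 14 passed (7.14%, against 37.3% of all genes). It was Ephx2 (8.12 ± 0.34), which encodes soluble epoxide hydrolase and acts on products of cytochrome P450 rather than of lipoxygenases. None of the list's lipoxygenase, leukotriene synthesis or leukotriene receptor genes passed in limma, also at an unadjusted p under 0.05, and Cysltr2 (4.45 ± 0.13), a receptor gene, was under the level.

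The list of Hsp90, its co-chaperones and the Hsp70 genes that work with them, the chaperone system of the Ptges3 product, passed in 11 of 12 measured cases (91.7%, against 37.3% of all genes), with a median height of 2.75. Hsp90aa1, an Hsp90 gene, stood at 12.02 ± 0.06, and its co-chaperone genes Ahsa1 and Fkbp4 at 9.90 ± 0.22 and 9.16 ± 0.27. Hspa8, an Hsp70 gene, stood at 12.75 ± 0.09, and Dnaja1 and St13, which encode partners of Hsp70, at 12.24 ± 0.02 and 9.87 ± 0.45. Fkbp5 (6.39 ± 0.33) did not pass (limma adjusted p = 0.790).

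**Figure D4:**
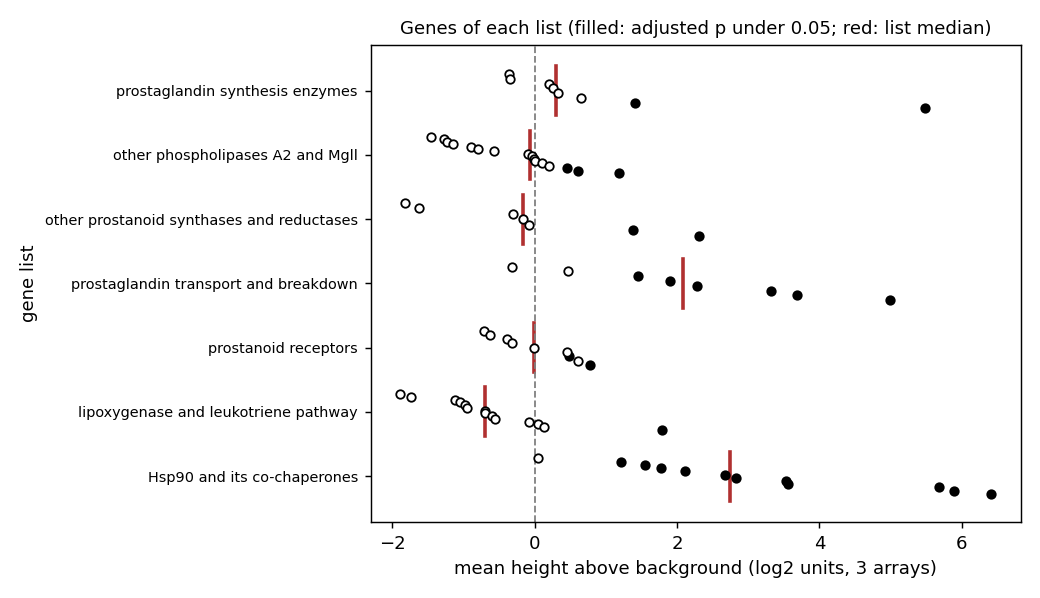
Mean height above background over 3 arrays, in log2 units, of each gene (points) in 7 lists, with each list's median as a red bar. Filled points passed at an adjusted p under 0.05, and the medians run from -0.69 for the lipoxygenase and leukotriene list to 2.75 for the Hsp90 list, with the 8 synthesis enzymes at 0.30.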

How the data were processed

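The authors deposited 1 value per probe set and array, taken as log2 signals from their range since no source states the log base. The submitters' processing notes name Affymetrix Expression Console. Its normalization and summary method were not given in the sources used here. Amplification took 1 round, per the labels. Of 35557 probe sets, 21789 had 1 gene symbol, 1621 had several and were left out, and 12147 were unnamed. RefSeq identifiers of GRCm38.p6 matched 21698 and changed 0 symbols. The brightest probe set stood for each of 19938 genes. Heights were fitted in R 4.3.3 by limma 3.58.1 with an intercept alone and a mean-variance trend in eBayes. P-values were adjusted by Benjamini-Hochberg over all genes, and the test was checked on simulated data. Python 3.11.15, pandas 2.3.3 and numpy 2.4.6 did the rest. The number of arrays, 3, limits the precision.

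The enzymes and gene lists were chosen with earlier results of these data known. Named were all enzymes and receptors, up to 6 passing genes and the lowest of each other pathway list, and the brightest and lowest gene of the marker lists that a result turned on. The remaining marker lists are given as counts or medians. Some further marker genes were named after their values were seen, as said above. Interstitial fibroblast markers passed in 2 of 6 cases and mesangial markers in 4 of 4. The alternatives tried were other background levels and families, the mean of probe sets, quantile normalization, no trend, a filter on low values and leaving out each replicate.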

Additional observations from a re-analysis of the deposited data

How the results depend on the processing

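The level taken as background set most of the counts, and 3 arrays of signal close to that level limit every call on Pla2g4a, Ptgs2, Ptges and Ptgds. With the 99th percentile of olfactory receptor genes, 3303 of all genes passed, and the counts were 1 of the 8 enzymes, 0 other phospholipases, 1 other synthase and 0 receptors. The mean heights of Pla2g4a, Ptgs2, Ptges and Ptgds then became -0.53, -0.21, -0.66 and -0.60. With the 90th percentile, 6 enzymes, 8 other phospholipases, 5 receptors and 2 lipoxygenase list genes passed, and Ptges2 and Hpgd had heights of 0.022 and 0.0070. With vomeronasal receptor genes as background, 13410 of all genes passed, all 8 enzymes, 10 other phospholipases, 5 other synthases, 8 receptors and 5 lipoxygenase list genes, and Ptges2 and Hpgd had heights of 0.55 and 0.53. With keratin-associated protein genes, 709 of all genes passed, 1 enzyme (Ptges3), 1 transport or breakdown gene, 3 Hsp90 list genes and 0 genes of the other 4 lists. Pla2g4a, Ptgs2, Ptges, Ptgis and Ptgds then had heights of -2.00, -1.67, -2.13, -0.91 and -2.06. In each list with a count of 0 at the 99th percentile or with keratin-associated genes, limma also gave 0 genes at an unadjusted p under 0.05. With low genes left out before the test, which leaves fewer genes to adjust over, 4 receptors passed.

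Leaving out each replicate in turn, 2 to 4 enzymes, 0 to 3 other phospholipases and 0 to 4 receptors passed. The receptor count of 0, without replicate 4, stood beside 3 at an unadjusted p under 0.05 in limma. Ptges3 passed under every alternative. The cause of these changes was not tested. The range over arrays of the Ptges3 signal was 0.44 with the mean of its probe sets in place of 0.24. Counts not named here stayed within 1.5 times. No paired analysis was possible because the series holds 1 group.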
